A study of Homo sapiens with 2 samples.

Results

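Autophagy and lysosome genes were followed in CWR22rv1 cells, a human prostate cancer cell line, after knockout of Akt1 and Akt2. The 40 genes were chosen by name for their place in the pathway: initiation, membrane supply, conjugation, cargo receptors, transcriptional control and the lysosome itself. All 40 were found among the 19607 genes of the deposited table. RNA was sequenced as 1 library of cells labelled Akt1/2 knockout (Akt1/2 DKO) and 1 library of cells labelled wild type (control). The study edited the cells with CRISPR/Cas9 plasmids against Akt1 and Akt2, selected them with puromycin and isolated single clones, so the Akt1/2 DKO library may stand for 1 clone, and an effect of the knockout cannot be told apart from differences between clones. The sources used here do not state whether the control cells carried a plasmid or which clone was sequenced. No treatment is given in the labels for either library.

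Macroautophagy begins when the ULK1 kinase complex and the class III PI3-kinase complex mark a membrane, which grows with lipid delivered by ATG2 and ATG9A. Proteins of the ATG8 family (LC3 and GABARAP) are then attached to that membrane and bind receptors such as SQSTM1 (p62), and the closed vesicle fuses with the lysosome, where cathepsins and other hydrolases digest it. Akt restrains the pathway through mTORC1, which acts on ULK1 and on the transcription factors TFEB and TFE3, and through the FOXO factors. TFEB and TFE3 bind an E-box with the core CACGTG, whose longer palindromic form is called the CLEAR element, and FOXO factors bind sites such as TGTTTAC and TGTTTGC.

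Promoter sequences of 4 of the genes are shown because they hold these letters and because the genes differed in direction. They are RefSeq sequences (GRCh38.p14), from 250 bases before to 10 bases after the annotated start, with the matches described here in capitals. MCOLN1, a lysosomal calcium channel, has the core and the CLEAR element on the plus strand of chr19:7522374-7522633. LAMP1, an abundant lysosomal membrane protein, has 6 copies of the core on the plus strand of chr13:113296989-113297248. CTSD, the aspartic protease cathepsin D, has 1 copy on the minus strand of chr11:1763918-1764177, and its match to TGTTTGC on the reverse strand is left in lower case. GABARAPL1, an ATG8 protein, has 1 match to TGTTTGC on the plus strand of chr12:10212627-10212886.
MCOLN1: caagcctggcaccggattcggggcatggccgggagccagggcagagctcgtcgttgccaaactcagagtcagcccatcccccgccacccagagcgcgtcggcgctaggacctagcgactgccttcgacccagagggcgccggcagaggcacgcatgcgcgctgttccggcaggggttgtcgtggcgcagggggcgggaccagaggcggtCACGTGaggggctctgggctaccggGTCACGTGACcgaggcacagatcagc
LAMP1: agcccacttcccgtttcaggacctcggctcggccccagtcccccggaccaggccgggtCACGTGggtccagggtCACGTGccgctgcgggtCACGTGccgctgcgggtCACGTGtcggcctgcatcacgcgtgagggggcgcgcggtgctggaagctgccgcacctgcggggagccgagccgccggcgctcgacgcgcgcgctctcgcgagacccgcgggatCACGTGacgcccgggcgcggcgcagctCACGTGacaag
CTSD: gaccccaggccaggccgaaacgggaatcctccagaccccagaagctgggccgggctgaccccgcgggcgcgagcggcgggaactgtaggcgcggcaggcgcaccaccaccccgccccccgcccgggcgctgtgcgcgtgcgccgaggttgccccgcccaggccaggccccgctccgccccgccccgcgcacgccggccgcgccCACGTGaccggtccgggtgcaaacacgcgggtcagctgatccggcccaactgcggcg
GABARAPL1: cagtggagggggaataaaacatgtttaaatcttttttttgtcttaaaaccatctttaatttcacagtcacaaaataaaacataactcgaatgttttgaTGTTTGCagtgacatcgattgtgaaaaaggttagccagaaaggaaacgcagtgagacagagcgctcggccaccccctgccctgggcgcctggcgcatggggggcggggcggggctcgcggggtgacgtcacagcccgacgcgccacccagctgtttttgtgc

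The reads estimated per gene summed after rounding to 9970815 for control and 10718634 for Akt1/2 DKO. AKT1 had 2645 and 591 reads and AKT2 had 2362 and 667, so both targeted genes were lower in the library labelled as their knockout. All 8 luminal prostate markers were detected in both libraries, although KLK3 had 184 and 29 reads. The 6 leukocyte and macrophage markers, which mark cells rich in lysosomes, held 6 and 10 reads together. CD14 had 4 and 10 of these, and PTPRC, CSF1R, LYZ, ITGAM and CD3E were at 0 in Akt1/2 DKO. The 4 basal epithelial markers held 15 and 0 reads, and the 4 endothelial markers held 1 and 3. The 5 fibroblast markers held 137 and 122 reads, with COL1A1 at 55 and 106 and COL3A1 at 74 and 9. Expressed genes of chromosome 3 were lower as a group in Akt1/2 DKO (median log2 fold change -0.53 over 666 genes with at least 50 reads). The next lowest medians were those of chromosome 8 (-0.20 over 396 genes) and chromosome 18 (-0.19 over 160 genes). Genes on chromosome 3 are named as such below, and those on chromosomes 8 and 18 are not, except CTSB.

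Most autophagy genes in the Akt1/2 DKO library were within 1.5-fold of control, while several lysosomal hydrolases were lower. A fold change is the ratio of normalized reads, Akt1/2 DKO to control, and a gene is said to rise or fall where it differs by at least 1.5-fold, the threshold of the study. Each condition is 1 library, so there is no test and no p-value, and 95% exact intervals cover counting error only. Of the 40 genes, 39 had at least 10 reads in both libraries together, and each of these had at least 100. Of the 39, 2 rose (ATG9A and TFEB) and 4 fell (SQSTM1, CTSB, CTSD and HEXA). The same rule called 30.9% of all 13318 genes that met the minimum of 10 reads (15.9% higher, 15.0% lower), and 23.2% of the 10956 genes that held 100 or more (11.3% higher, 11.9% lower). The 6 of 39 are thus a smaller share than in either background. None of the 39 passed 2-fold, beside 18.0% of the 13318 genes, with 7.94% lower. That background also holds genes with under 100 reads. The median log2 fold change was 0.032 over the 39 genes and 0.0063 over all genes tested. The interval excluded no change for 26 of the 39 genes, 16 higher and 10 lower, beside 59.2% of all genes tested.

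**Figure D1:**
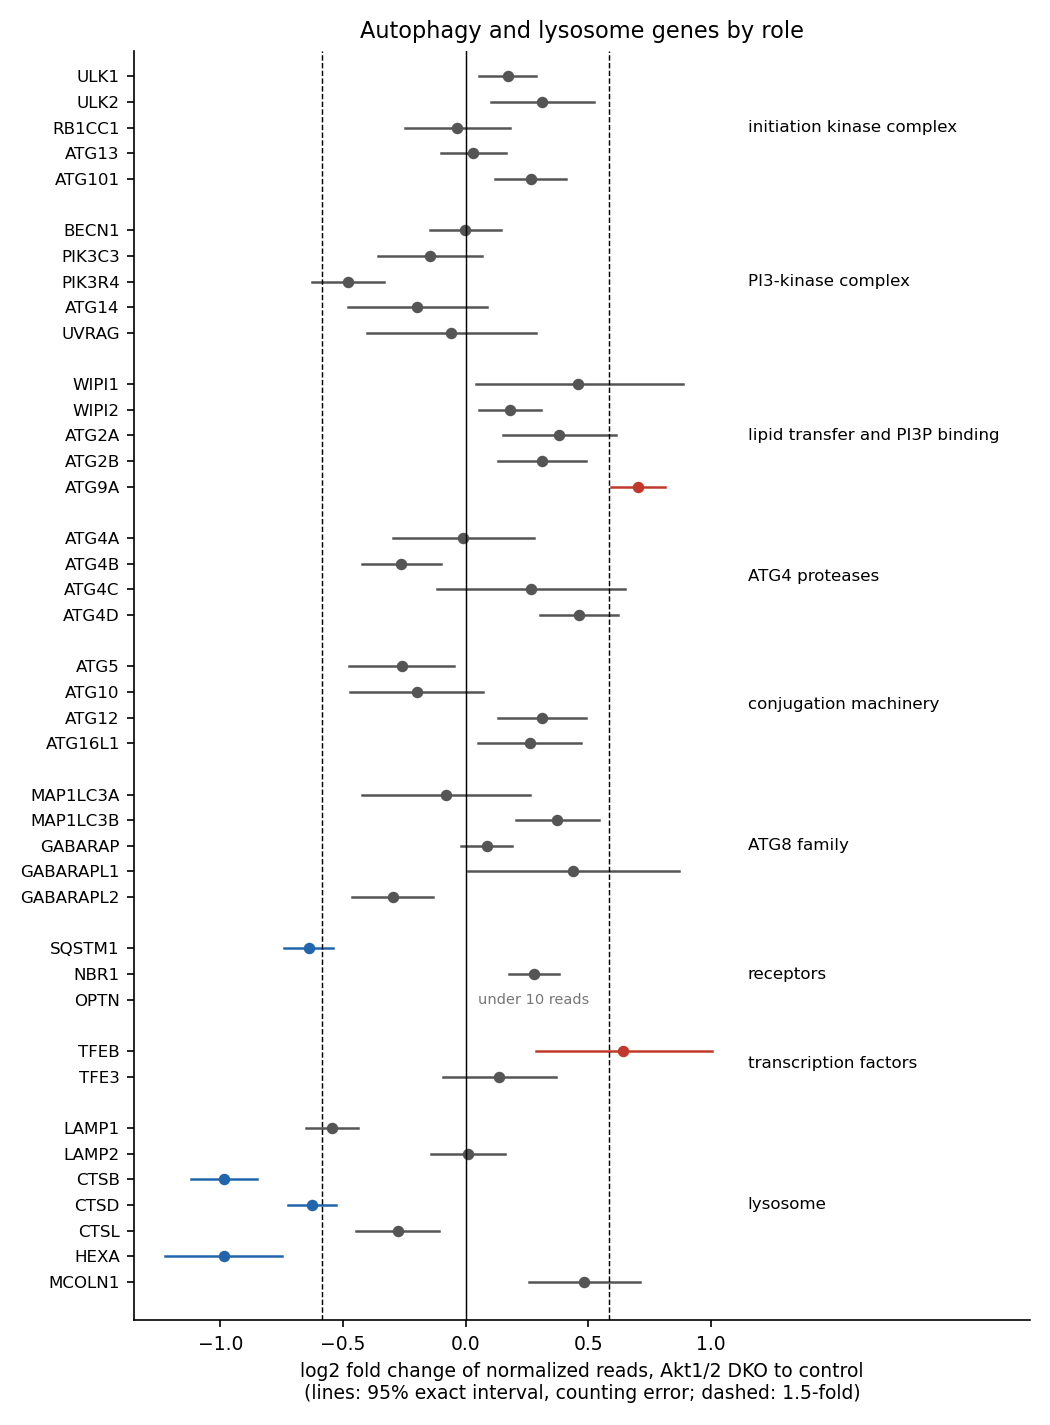
Log2 fold change of normalized reads (x axis, Akt1/2 DKO to control, 1 library each) for each gene, grouped by role, with lines for the 95% exact interval of counting error and dashed lines at 1.5-fold. ATG9A and TFEB lie above 1.5-fold (red), SQSTM1, CTSB, CTSD and HEXA lie below it (blue), and the other genes with at least 10 reads lie between.

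The initiation complex, the kinase assembly that starts the process, had 0 of 5 genes past 1.5-fold. Among all genes with at least 100 reads 23.2% passed it. Here and for the other roles below, a count over so few genes gives only a rough share to set beside that. ULK1, its kinase, had 1086 reads in control and 1356 in Akt1/2 DKO, a log2 fold change of 0.17 (95% interval 0.055 to 0.29). Its paralog ULK2 had 321 and 442 reads, a log2 fold change of 0.31 (0.10 to 0.52). ATG101, a scaffold that stabilizes ATG13, had 674 and 898 reads (0.27, interval 0.12 to 0.41). The reads of these 3 genes were thus somewhat higher in Akt1/2 DKO, beyond counting error and within 1.5-fold. ATG13, the regulatory subunit, had 886 and 1004 reads (0.032), and RB1CC1 (FIP200), the large scaffold, had 351 and 380 (-0.034). Both intervals included no change. RB1CC1 depended on the unit, since its FPKM went from 8.71 to 5.32, a log2 ratio of -0.71.

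The PI3-kinase complex, which makes the lipid PI3P on the growing membrane, also had 0 of 5 genes past 1.5-fold. BECN1 (Beclin 1), its regulatory core, had 729 and 808 reads and a log2 fold change of -0.00040 (interval -0.15 to 0.15). The lipid kinase PIK3C3 had 367 and 368 reads (-0.14, interval -0.36 to 0.068), and its log2 ratio in FPKM had the other sign (0.25). PIK3R4, the pseudokinase that holds PIK3C3, had 870 and 692 reads, a log2 fold change of -0.48 (interval -0.63 to -0.33). PIK3R4 was the lowest of the complex and the one gene of the 40 that lies on chromosome 3, whose median was -0.53. The part of the chromosome in its value was not tested. ATG14, which directs the complex to autophagosomes, had 213 and 206 reads, and UVRAG, the endosomal alternative to ATG14, had 139 and 148. Neither differed beyond counting error.

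Of the genes that supply the membrane, 1 of 5 passed 1.5-fold. All 5 had intervals above no change, as did 3963 of the 13318 genes tested. ATG9A, a lipid scramblase carried on vesicles, had 1031 reads in control and 1859 in Akt1/2 DKO. That is 1.63-fold higher, a log2 fold change of 0.70 (interval 0.59 to 0.81), and the largest rise among the 39 genes. ATG9A (ENSG00000198925) lies on chromosome 2 from 219219380 to 219229717. A protein-coding gene model on the same strand, AC068946.2, shares 1833 of its exon bases, so reads could be assigned to either. The bridge proteins ATG2A and ATG2B, which move lipid into the membrane, had 267 and 386 reads (0.38, interval 0.15 to 0.61) and 450 and 619 reads (0.31, interval 0.13 to 0.49). The PI3P readers were closer to control or less well measured. WIPI2 had 900 and 1131 reads (0.18, interval 0.053 to 0.31), and WIPI1 had 80 and 122 (0.46, interval 0.041 to 0.89).

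The ATG4 proteases, which trim ATG8 proteins before conjugation and release them afterwards, differed among themselves. ATG4D had 537 and 820 reads, a log2 fold change of 0.46 (interval 0.30 to 0.62). ATG4B, the main processing enzyme, had 651 and 602 reads, a log2 fold change of -0.26 (interval -0.42 to -0.10). ATG4A had 196 and 216 reads and ATG4C had 102 and 136, both with intervals that included no change. None of the 4 passed 1.5-fold. By FPKM, the authors' level per transcript length, ATG4B held 43.1% of the family in control and 32.1% in Akt1/2 DKO, and ATG4D held 39.7% and 50.6%. The order of the pair was therefore exchanged between the libraries, while the family sum went from 86.3 to 94.3 FPKM.

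The conjugation machinery had 0 of 4 genes past 1.5-fold and no common direction. ATG12, the ubiquitin-like protein of the ATG12-ATG5 conjugate, had 443 and 609 reads (0.31, interval 0.13 to 0.49), and its partner ATG16L1, which places the conjugate on the membrane, had 329 and 437 (0.26, interval 0.051 to 0.47). ATG5, the acceptor of ATG12, had 374 and 346 reads (-0.26, interval -0.48 to -0.046). ATG10, the E2-like enzyme that joins them, had 231 and 223 (-0.20, interval -0.47 to 0.072). Parts of 1 conjugate thus lay on both sides of 0. ATG10 shares 374 exon bases with RPS23 on the opposite strand, a ribosomal protein gene with 5510 and 7234 reads, and ATG12 shares 378 with AP3S1. The sources do not state whether counting used strand.

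The ATG8 family kept its overall level. GABARAP had 1387 and 1633 reads (0.087, interval -0.017 to 0.19) and was the most abundant of the 40 genes per length in both libraries, at 197 and 214 FPKM. MAP1LC3B (LC3B), the usual marker of autophagosomes, had 492 and 707 reads (0.37, interval 0.21 to 0.54). GABARAPL2 (GATE-16) had 639 and 577 reads, a log2 fold change of -0.30 (interval -0.46 to -0.13). MAP1LC3A had 141 and 148 reads (-0.079, interval -0.42 to 0.26). GABARAPL1 had 78 and 117 reads (0.44, interval 0.011 to 0.87). The family therefore held 2 genes whose intervals lay above no change (MAP1LC3B and GABARAPL1), 1 below it and 2 that included it, and 0 of 5 passed 1.5-fold. The FPKM of GABARAPL1 went from 4.97 to 8.11, a log2 ratio of 0.71, so by that unit it passed 1.5-fold. Paralogs of the family can share reads, although MAP1LC3B2 had 0 and 2 reads and MAP1LC3C had 0 and 0.

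The sum of the ATG8 family was 299 FPKM in control and 314 in Akt1/2 DKO. GABARAP made up 197 and 214 FPKM of it. The shares of the others in control and Akt1/2 DKO were GABARAPL2 21.5% and 17.2%, MAP1LC3B 6.09% and 7.75%, MAP1LC3A 4.81% and 4.32%, and GABARAPL1 1.66% and 2.58%. By FPKM the order of the 5 genes was the same in both libraries. By CPM, without length, GABARAPL2 was above MAP1LC3B in control (23.3% and 18.0%) and below it in Akt1/2 DKO (18.1% and 22.2%).

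**Figure D2:**
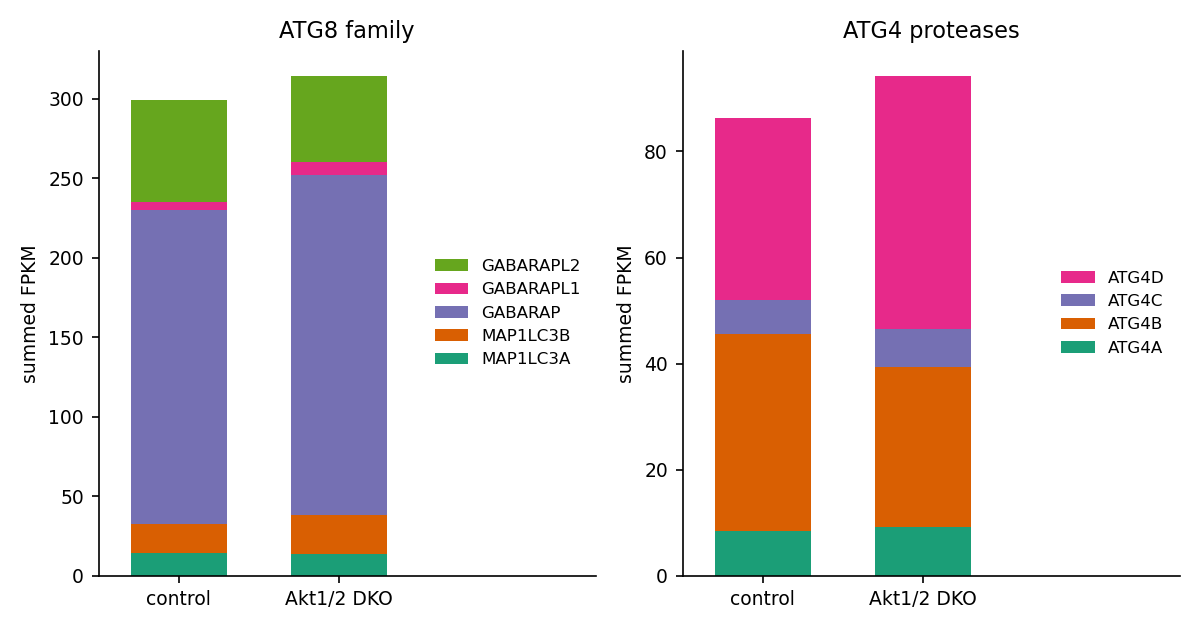
Summed FPKM (y axis) of the ATG8 family (left) and the ATG4 proteases (right) in the control and Akt1/2 DKO libraries (1 each), with a colour for each gene. The ATG8 sum is 299 and 314 FPKM with GABARAP as the main part, and in the ATG4 family ATG4D takes the larger share from ATG4B in Akt1/2 DKO.

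Of the receptors, which tie cargo to ATG8 proteins, SQSTM1 fell. SQSTM1 (ENSG00000161011, chromosome 5 from 179806398 to 179838078) had 1909 reads in control and 1358 in Akt1/2 DKO, 1.56-fold lower, a log2 fold change of -0.64 (interval -0.74 to -0.54). Only GABARAP and CTSD were higher per length among the 40 genes in control, where SQSTM1 had 95.9 FPKM, and in Akt1/2 DKO it had 60.7. Its exons overlap MRNIP by 1582 bases and MGAT4B by 105 bases on the opposite strand. MRNIP had 227 and 295 reads and MGAT4B had 1262 and 908 (-0.62), and their part in the value of SQSTM1 was not tested. NBR1, a receptor that acts together with SQSTM1, had 1387 and 1865 reads, a log2 fold change of 0.28 (interval 0.18 to 0.38), so the pair differed in direction. OPTN, a receptor for damaged mitochondria and bacteria, had 7 and 2 reads, under the minimum of 10. As counted its log2 ratio was -1.96, and the interval ran from -5.26 to 0.44, too few reads to tell the libraries apart.

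Among the transcription factors that drive lysosomal and autophagy genes, TFEB rose. TFEB (ENSG00000112561, chromosome 6 from 41683978 to 41736259) had 104 and 180 reads, 1.56-fold higher, a log2 fold change of 0.64 (interval 0.29 to 1.01). The lower limit lies under 1.5-fold, and with the authors' FPKM (5.56 and 7.79) the log2 ratio was 0.49. Its relative TFE3 had 287 and 350 reads (0.14, interval -0.092 to 0.37). MITF, a factor of the same family that was not among the 40 genes, had 9 reads in control and 96 in Akt1/2 DKO, 9.62-fold higher (log2 fold change 3.27, interval 2.28 to 4.44), and lies on chromosome 3. Its FPKM of 0.68 and 3.31 gave a smaller ratio.

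The lysosome genes held the largest differences. CTSB (ENSG00000164733), the cysteine protease cathepsin B, had 1249 reads in control and 700 in Akt1/2 DKO, 1.98-fold lower, a log2 fold change of -0.98 (interval -1.12 to -0.85). CTSB lies on chromosome 8, whose median was -0.20, and the part of the chromosome in its value was not tested. HEXA, the alpha subunit of beta-hexosaminidase, which degrades gangliosides, had 407 and 228 reads, also 1.98-fold lower (-0.98, interval -1.23 to -0.75). CTSD had 2095 and 1505 reads, 1.54-fold lower (-0.63, interval -0.72 to -0.53). These hydrolases fell, and the intervals of CTSB and HEXA lay wholly past 1.5-fold while that of CTSD did not. CTSD passed 1.5-fold with TMM and DESeq2 scaling but not with total-count or upper-quartile scaling. HEXA (ENSG00000213614) lies on chromosome 15 from 72340919 to 72376476, where the gene model AC009690.1 on the same strand shares 617 exon bases and 2 antisense models overlap it. CTSD (ENSG00000117984) lies on chromosome 11 from 1752752 to 1764573, and AC068580.4 on the same strand shares 1304 of its exon bases, with an antisense model overlapping 493.

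The other lysosome genes stayed within 1.5-fold. LAMP1 (ENSG00000185896) had 1728 and 1314 reads, 1.46-fold lower (-0.54, interval -0.65 to -0.44), and LAMP2, its structural relative needed for vesicle fusion, had 689 and 769 reads (0.0096, interval -0.14 to 0.16). CTSL, the cysteine protease cathepsin L, had 600 and 549 reads (-0.28, interval -0.45 to -0.11). MCOLN1 (ENSG00000090674) went the other way, with 265 and 411 reads, 1.40-fold higher (0.48, interval 0.26 to 0.71). Of the 7 lysosome genes, 3 fell and 0 rose, with a median log2 fold change of -0.54. Of the other 32 genes tested 1 fell and 2 rose, with a median of 0.15. Over all genes tested 15.0% were lower and 15.9% higher, and over those with at least 100 reads 11.9% and 11.3%. A count out of 7 genes gives only a rough share, and CTSD is 1 of the 3. Together the 7 genes held 330.2 FPKM in control and 232 in Akt1/2 DKO.

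**Figure D3:**
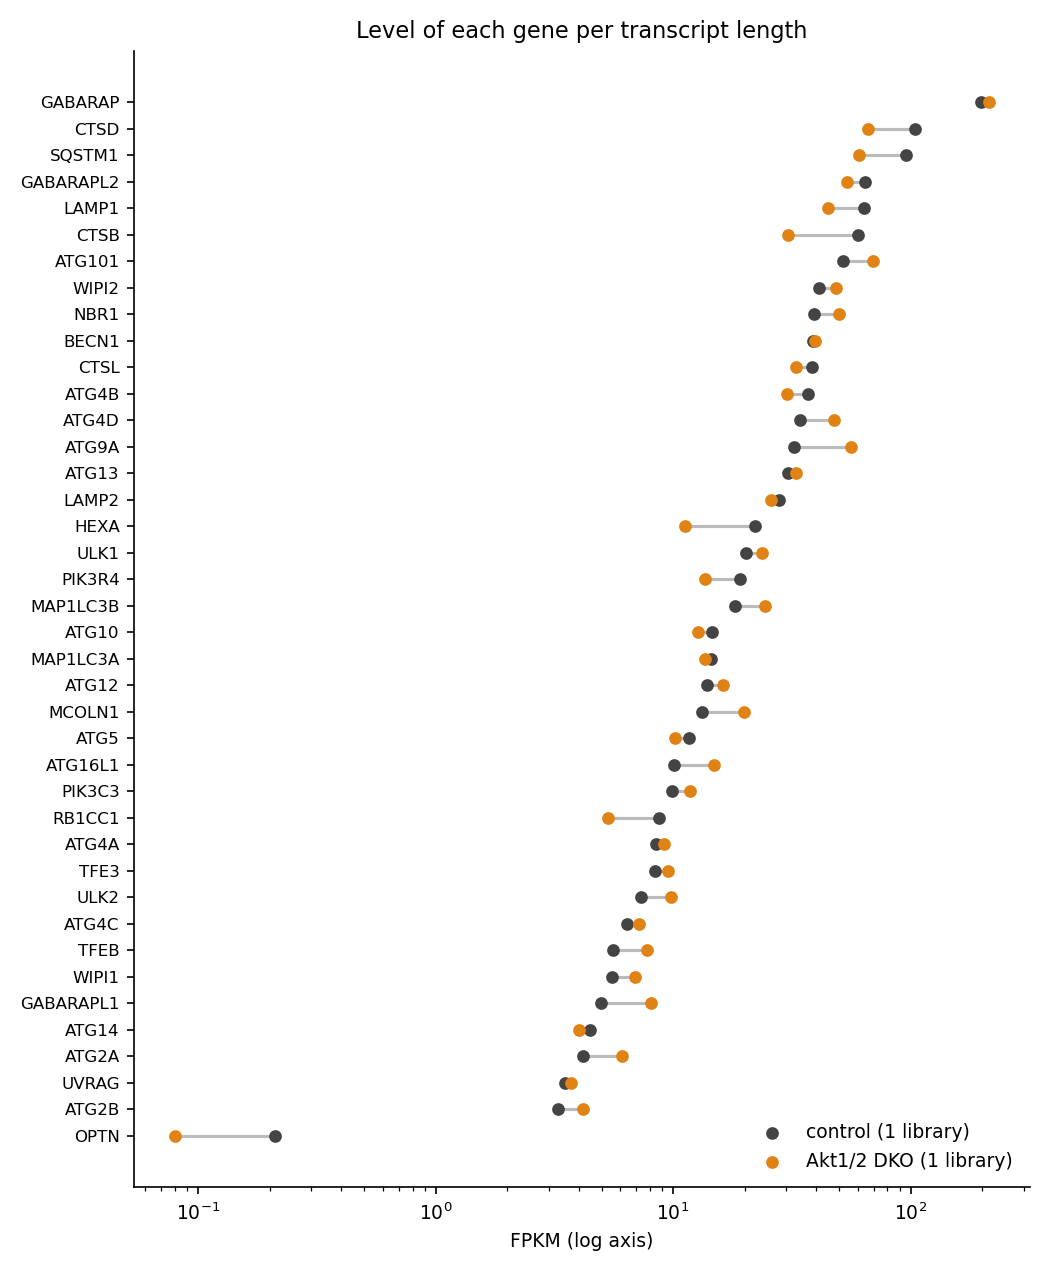
FPKM (x axis, log scale) of each of the 40 genes in the control library (grey) and the Akt1/2 DKO library (orange), ordered by the control level. GABARAP is highest in both libraries, CTSD, SQSTM1 and CTSB lie to the left in Akt1/2 DKO, ATG9A lies to the right, and OPTN is lowest at 0.21 and 0.08 FPKM.

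The wider pathway was described with 7 lists of further genes, in which lysosomal hydrolases stood out by count. Of 35 other hydrolases with at least 10 reads, 16 fell (45.7%) and 4 rose, with a median log2 fold change of -0.54, beside 15.0% lower and 15.9% higher over all genes tested. CTSV (cathepsin V) fell from 99 to 33 reads (3.33-fold lower, interval -2.35 to -1.15 on the log2 scale), GALC (galactosylceramidase) from 143 to 51 and GALNS, which degrades keratan sulfate, from 113 to 47. The largest rises with at least 100 reads were CTSC (cathepsin C), from 67 to 321 reads (4.32-fold, interval 1.73 to 2.51 on the log2 scale), IDS (iduronate sulfatase), from 381 to 909, and ASAH1 (acid ceramidase), from 416 to 944. Hydrolases were thus not lower without exception. Without the genes of chromosome 3, 15 of 34 fell. In the set that the authors' table annotates to the KEGG lysosome pathway, looked up after these values were seen, 29 of 113 genes fell (25.7%) and 9 rose, and without the 40 genes 26 of 106 fell. This set shares genes with the list of other hydrolases, such as CTSV, which were not left out. Its counts are therefore not independent of those above.

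Cofactors of the sphingolipid hydrolases fell as well. GM2A, the activator that presents gangliosides to their hydrolase, fell from 247 to 94 reads (2.91-fold lower). PSAP, the precursor of the saposins, which are cofactors of such enzymes, fell from 7251 to 3489 reads, a log2 fold change of -1.20 (interval -1.26 to -1.15).

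Of 23 lysosomal membrane and sorting genes, 4 fell and 3 rose (30.4%). The share was 30.9% over all genes tested and 23.2% over those with at least 100 reads. Besides PSAP and GM2A, LAPTM4B, a lysosomal membrane protein, fell from 1749 to 1015 reads. SLC17A5 (sialin), which exports sialic acid, rose from 121 to 388, and SORT1 (sortilin), a sorting receptor, from 258 to 815. The proton pump was near control, since of 18 V-ATPase subunits 1 fell and 0 rose, with a median of -0.030. That gene was ATP6V1A, from 1742 to 1211 reads, on chromosome 3.

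Of 24 other core autophagy genes, 5 fell and 2 rose (29.2%). The share was 30.9% over all genes tested and 23.2% over those with at least 100 reads. ATG7, the E1-like enzyme of conjugation, fell from 496 to 297 reads (-0.89), SNX4 from 747 to 457 and RAB7A, the GTPase of late endosomes, from 4444 to 2761. These 3 and RUBCN lie on chromosome 3, and without that chromosome 1 of 19 fell (ATG9B, from 61 to 29 reads) and 2 rose. The part of the chromosome in these values was not tested. NRBF2, a subunit of the PI3-kinase complex, rose from 78 to 307 reads, 3.55-fold (log2 interval 1.47 to 2.21), and WDR45 (WIPI4) from 280 to 494. Of 18 other receptors 3 fell and 1 rose (22.2%, near the 23.2% of genes with at least 100 reads). BNIP3L, a mitochondrial receptor, fell from 484 to 357 reads, FKBP8 from 2867 to 1999 and SEC62, on chromosome 3, from 867 to 620. BNIP3L did not pass 1.5-fold with total-count or upper-quartile scaling or FPKM, nor SEC62 with upper-quartile scaling. RETREG1, a receptor for the endoplasmic reticulum, rose from 23 to 106 reads (4.16-fold).

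Of 31 genes of mTORC1 and lysosomal nutrient sensing, 0 fell and 3 rose (9.68%). Over all genes tested 15.9% were higher, and over those with at least 100 reads, as all 31 had, 11.3%. Besides MITF the genes that rose were PRKAA2, a catalytic subunit of AMPK, from 32 to 218 reads (6.14-fold), and SLC38A9, an arginine sensor, from 86 to 148. By FPKM (5.69 and 8.15) SLC38A9 did not pass 1.5-fold. Of 12 autophagy genes known as FOXO targets, 11 of which are among the 40, 0 passed 1.5-fold in either direction. Over all genes tested 30.9% did, and over those with at least 100 reads, as all 12 had, 23.2%. The median of the 12 was -0.073, with 5 intervals above and 4 below no change. Over the 13318 genes tested 3963 lay above and 3917 below.

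**Figure D4:**
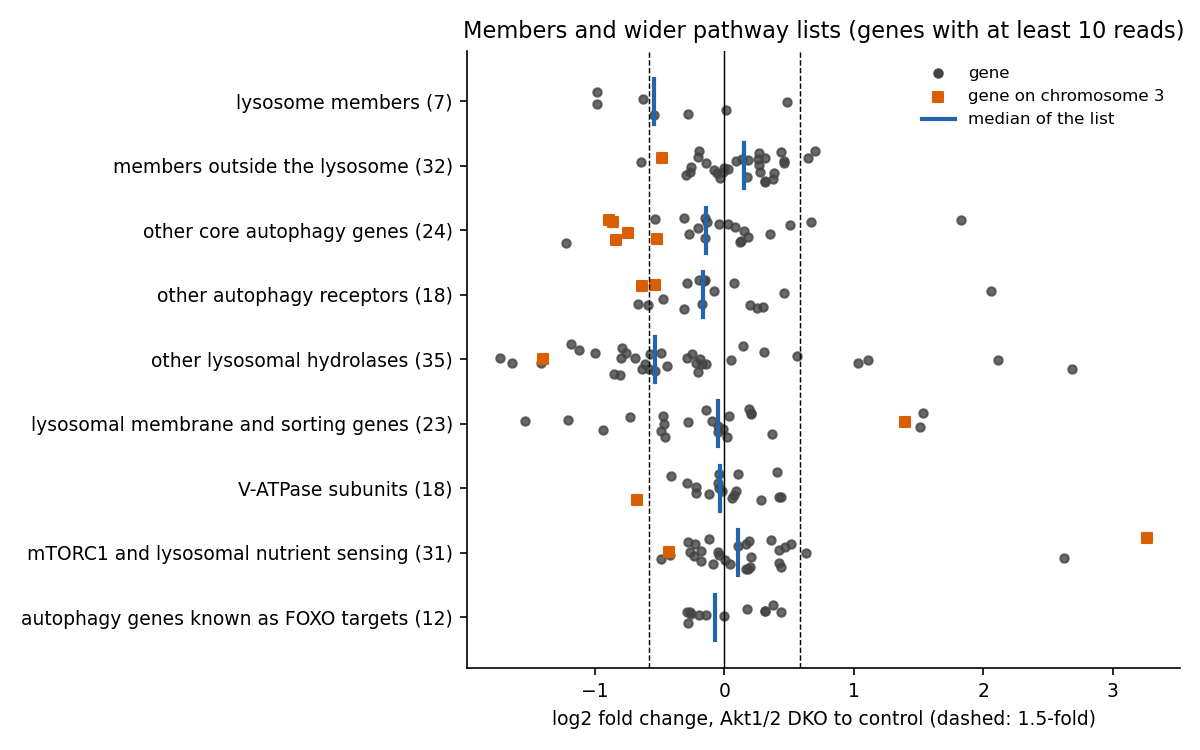
Log2 fold change (x axis, Akt1/2 DKO to control, 1 library each) of every gene with at least 10 reads in each list, with the number of genes in brackets, blue lines for medians, orange squares for genes on chromosome 3 and dashed lines at 1.5-fold. The lysosome members and the other hydrolases both have medians of -0.54, while the other lists have medians between -0.16 and 0.15.

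The promoter sequences were searched for the 4 motifs on both strands. Of the 40 genes, 33 had an entry, with 41 windows of 300 bases. CACGTG lay in 4 of the 41 windows (MCOLN1, LAMP1, CTSD and ATG14), 9.76% beside 9.28% of 15195 windows of tested genes and 7.26% of all windows. The CLEAR element, which contains CACGTG, lay in that of MCOLN1, beside 0.658% of windows of tested genes and 0.353% of all 35116 windows. TGTTTAC lay in CTSL, beside 2.61% and 3.42%. TGTTTGC lay in GABARAPL1, SQSTM1 and CTSD, 7.32% of the 41 windows, beside 456 of the 15195 windows of tested genes and 3.89% of all windows. Of these 3 genes 2 fell (SQSTM1 and CTSD) and 0 rose, with a median of -0.63. Over the 423 tested genes with TGTTTGC, 17.7% were lower and 22.0% higher. CTSD has the core and was lower by 1.54-fold, LAMP1 has 6 copies and was lower by 1.46-fold, and MCOLN1 has the CLEAR element and was higher by 1.40-fold. ATG14 has the core and a log2 fold change of -0.20, with an interval that included no change. Of the 4 genes with the core, 1 fell and 0 rose, with a median of -0.37, and MCOLN1 alone lay above control. Over the 1310 tested genes with the core, 12.9% were lower and 13.0% higher. Over the 92 tested genes with the CLEAR element, 12.0% were lower and 8.70% higher, so the rise of MCOLN1 is 1 gene only.

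V-ATPase subunits had CACGTG in 5 of 17 windows (29.4%), other hydrolases in 6 of 32 (18.8%) and membrane and sorting genes in 7 of 33 (21.2%). Over the lysosome members and these 3 lists, 19 tested genes with the core had a median log2 fold change of -0.047, with 4 lower and 0 higher, and 41 without it had a median of -0.14, with 9 lower and 4 higher. In the same lysosomal set, 6 genes with the CLEAR element had a median of -0.25, with 1 lower and 0 higher. The 54 without it had a median of -0.14, with 12 lower and 4 higher. Over all tested genes with an entry the medians were 0.017 for 1310 genes with the core and 0.0075 for 9052 without it. These groupings by motif were made after the fold changes were known and are a description of sequence letters, not of binding.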

How the data were processed

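RNA of 1 Akt1/2 DKO library and 1 control library of CWR22rv1 cells was compared. Values deposited by the authors were unnormalized estimated counts for each gene and FPKM. The submitters' processing notes name fastp 0.20.0, TopHat, Cufflinks, edgeR and the build GRCh38.p10, without roles. The authors' own comparison (fold changes, p-values, FDR) was not used. Counts were rounded, scaled by TMM factors (edgeR 4.0.16, R 4.3.3, library ratio 1.11) and kept where both libraries held at least 10 reads together. A library under 3 reads was set to 3 for the fold (0.306 and 0.276 CPM). Intervals are 95% exact (Clopper-Pearson, scipy 1.17.1) given the sum of reads. They cover counting error only, and reads without molecular identifiers are not independent molecules. With 1 library per condition no test was made. Positions come from GENCODE 29 (GRCh38). The steps were tested on simulated data.

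The 40 genes and the lists were chosen with earlier results of these data known. All 40 genes were named, and from each list the 3 largest rises and falls past 1.5-fold with at least 100 reads and an interval excluding no change. Others were named after their values were seen: RUBCN, ATG9B, genes overlapping one of the 40, paralogs and markers. Alternatives were total-count, DESeq2 1.42.0 and upper-quartile scaling, FPKM, 3 read filters, 1 added read, 2-fold, and an interval wholly past 1.5-fold. Leaving out chromosome 3 and the KEGG lysosome set were added after seeing the data. No proteins were analysed here, and 1 looked-up gene is not reported here.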

Additional observations from a re-analysis of the deposited data

How the results depend on the processing

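Of the 40 genes, the number past 1.5-fold was between 5 and 8 under the scalings, read filters, added read, FPKM and without chromosome 3, beside 6 as reported. CTSD no longer fell with total-count or upper-quartile scaling. With FPKM, RB1CC1 fell, GABARAPL1 and MCOLN1 rose and TFEB did not. A 2-fold threshold left 0 and an interval wholly past 1.5-fold left 3 (ATG9A, CTSB and HEXA), since each asks for a larger difference. Over all 13318 genes tested, the 2-fold threshold left 18.0% and the interval rule 16.5%. The median log2 fold change stayed between 0.021 and 0.12. With FPKM the log2 ratio of RB1CC1 (-0.71), PIK3C3 (0.25), ATG16L1 (0.56) and ATG101 (0.42) left its counting interval, and the cause was not tested.

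The 2-fold threshold left 2 other core autophagy genes, 1 other receptor, 10 other hydrolases (4 higher, 6 lower) and 0 V-ATPase subunits. The interval wholly past 1.5-fold left 4, 2, 13 (4 higher, 9 lower) and 0. Without chromosome 3 there were 3 core genes and 0 V-ATPase subunits. Upper-quartile scaling left 2 receptors, and FPKM added 1 FOXO target (GABARAPL1). By CPM, without length, the shares in control and Akt1/2 DKO were 18.0% and 22.2% for MAP1LC3B, 50.7% and 51.3% for GABARAP and 2.85% and 3.68% for GABARAPL1, and 23.3% and 18.1% for GABARAPL2. They were 13.2% and 12.2% for ATG4A and 36.1% and 46.2% for ATG4D. The cause of the difference from FPKM was not tested. The depth limits OPTN, and WIPI1, GABARAPL1 and TFEB have wide intervals. No paired analysis was possible because there is a single library of each kind, and for the same reason no library could be left out.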
